A study of Homo sapiens with 40 samples.

Results

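The chaperones of the endoplasmic reticulum (ER) and the genes of its stress response were followed after X-ray irradiation in AG01522, a strain of normal fibroblasts from human skin. The 10 genes were HSPA5, HSP90B1, CALR, CANX, PDIA4, PDIA6, DNAJB9, SDF2L1, HERPUD1 and XBP1, out of 18244 genes measured on Affymetrix PrimeView arrays. They were chosen by name. An array reports a gene through 1 or more probe sets, each a group of short probes read together, and 39 probe sets were annotated to 1 of these genes alone. Each gene was read through its brightest probe set by mean over the 40 arrays, and others are given beside it for some genes and comparisons. The 2 other probe sets of PDIA4 and the 2 of DNAJB9 are not given. Confluent cultures were given 5 cGy + 2 Gy (the small dose first and the large one after 12 h), 2 Gy alone or 5 cGy alone, and each treatment was sampled at 4 times counted from its last dose, namely 3, 6, 12 and 24 h. There were 3 arrays in each of these 12 groups, and the same 4 arrays of sham irradiated cells (0 Gy) served every comparison against sham. The sham arrays were baseline controls without a later time, so irradiation and time in culture cannot be told apart in a comparison against sham. Replicates of a group are termed biological in the labels with no word on separate cultures, and all come from 1 cell strain, so the p-values measure the spread between these arrays.

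The ER folds and modifies proteins that will be secreted or placed in membranes. When unfolded proteins build up in it, the sensors IRE1, ATF6 and PERK start the unfolded protein response, and the transcription factors XBP1 and ATF6 then raise the genes of chaperones, folding enzymes and the degradation machinery. Skin fibroblasts secrete large amounts of collagen and are known for a well developed ER. HSPA5 (also called BiP or GRP78) is the main Hsp70 chaperone of the ER and its induction is the usual sign of this response.

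The best known control element of these genes is the ER stress element (ERSE), the letters CCAAT and CCACG separated by 9 bases of any kind. It was searched on both strands in the RefSeq promoters (GRCh38.p14, 250 bases before to 50 bases after the transcription start), and all 10 genes had such a promoter. It was found in promoters of 6 of the 10 genes, HSPA5, HSP90B1, CALR, CANX, PDIA6 and XBP1, against 25 of all 27305 genes with such a window (0.0916%). A gene can have several windows, and the 10 genes had 16 in all. A shorter element, ERSE-II, the letters ATTGG and CCACG separated by 1 base of any kind, was found in 2 of the others, SDF2L1 and HERPUD1, against 19 of all genes (0.0696%). The run CCACG alone, which lies within both longer elements, was in a promoter of each of the 10 genes but also in 42.1% of all genes. The element TGACGTGG, known as UPRE, was in none of the 10 genes and in 0.927% of all genes. PDIA4 and DNAJB9 held neither longer element in these windows. The sites are shown because 8 of these genes held 1 or the other of the 2 longer elements near the start of transcription. As the 10 genes were chosen by name and the ERSE is already known as a control element of such genes, the counts are not a test. The element stands in capitals, within 12 bases on either side and 5′ to 3′ on the strand of the gene. In HSP90B1 (second line), CALR and SDF2L1 it runs on the opposite strand, so that the capitals there show its reverse complement. Such a match is a description of the letters and says nothing of binding in these cells.
HSPA5 (chr9:125241379-125241421, minus strand): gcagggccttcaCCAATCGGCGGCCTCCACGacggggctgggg
HSP90B1 (chr12:103930204-103930246, plus strand): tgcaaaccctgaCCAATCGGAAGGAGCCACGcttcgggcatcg
HSP90B1 (chr12:103930309-103930351, plus strand): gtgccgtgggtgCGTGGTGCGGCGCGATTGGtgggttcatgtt
CALR (chr19:12938372-12938414, plus strand): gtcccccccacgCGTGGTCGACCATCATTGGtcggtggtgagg
CANX (chr5:179698766-179698808, plus strand): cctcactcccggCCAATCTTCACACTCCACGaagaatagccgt
PDIA6 (chr2:10812841-10812883, minus strand): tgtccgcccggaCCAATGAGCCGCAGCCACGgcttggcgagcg
XBP1 (chr22:28800591-28800633, minus strand): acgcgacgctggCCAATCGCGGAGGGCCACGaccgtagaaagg
SDF2L1 (chr22:21642102-21642136, plus strand): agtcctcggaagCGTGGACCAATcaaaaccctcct
HERPUD1 (chr16:56932013-56932047, plus strand): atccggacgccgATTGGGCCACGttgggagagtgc

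The values are log2 intensities, on which a difference of 1 is a doubling. Array medians lay between 5.62 and 5.70 after the normalization of the authors. All 9 fibroblast markers averaged 8.92 or more, while the keratinocyte, melanocyte, endothelial and leukocyte markers averaged at most 6.05 apart from KRT10 (10.37), so that the labelled cell type was borne out by its collagen and vimentin genes. Of these markers, PDGFRB was called higher than sham at 24 h after each treatment (0.39 to 0.45), and CD3E, which averaged 5.39, after 5 cGy (0.39). Between 24 h and 3 h CD3E was called higher after 5 cGy (0.34, adjusted p 0.0407) and lower after 2 Gy (-0.30, adjusted p 0.0370), and VWF lower after 2 Gy (-0.38, adjusted p 0.0445). Their part in the results was not tested. CDKN1A, a p53 target raised by DNA damage, was higher than in sham by 0.61 to 0.79 in each 2 Gy and 5 cGy + 2 Gy group (adjusted p at most 0.000112 by limma). Among the 4 sham arrays, replicate 1 was the highest or the lowest for 8 of the 10 genes, and for 65.9% of all genes measured. For the 10 chosen probe sets and the called probe sets beside them, calls that changed without it are named. A gene is named changed, or called, where the adjusted p of limma (moderated linear model, Benjamini-Hochberg adjustment over all 18244 genes) was under 0.05, and a ± gives the standard error of a log2 change unless an SD is named.

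Against sham, most of these genes lay near the sham level after every treatment. None of the 10 was called at 3, 6 or 12 h, and only CALR, a chaperone for glycoproteins, was called at 24 h, where it was lower after all 3 treatments. After 5 cGy, 0 of the 10 genes were called at 3, 6 and 12 h and 1 at 24 h, where the shares among all genes were 0%, 0%, 0.329% and 3.11%. After 2 Gy, 0, 0, 0 and 1 were called, and the shares among all genes were 0.132%, 0.192%, 0.669% and 6.05%. After 5 cGy + 2 Gy, 0, 0, 0 and 1 were called, and the shares among all genes were 0.132%, 0.378%, 1.4% and 9.92%. A single call is the smallest count above 0 that 10 genes can give, and it is read for CALR alone and not for the group. At an unadjusted p under 0.05 the limma fit held 0, 1, 3 and 3 of the 10 genes at the 4 times after 5 cGy, beside 3.52%, 5.94%, 8.98% and 15.7% of all genes. After 2 Gy it held 0, 0, 2 and 3, beside 13.3%, 6.15%, 9.83% and 18.9%, and after 5 cGy + 2 Gy 2, 2, 3 and 3, beside 6.39%, 8.68%, 12.4% and 22.5%. Each of these counts is small, and none is read as a result about the group. The median change over the 10 genes lay between -0.14 (5 cGy + 2 Gy at 12 h, where the median over all genes was 0.02) and 0.01 (5 cGy at 3 h, all genes 0.01). In these bulk arrays, fewer cells that express a gene and less RNA per cell cannot be told apart.

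**Figure D1:**
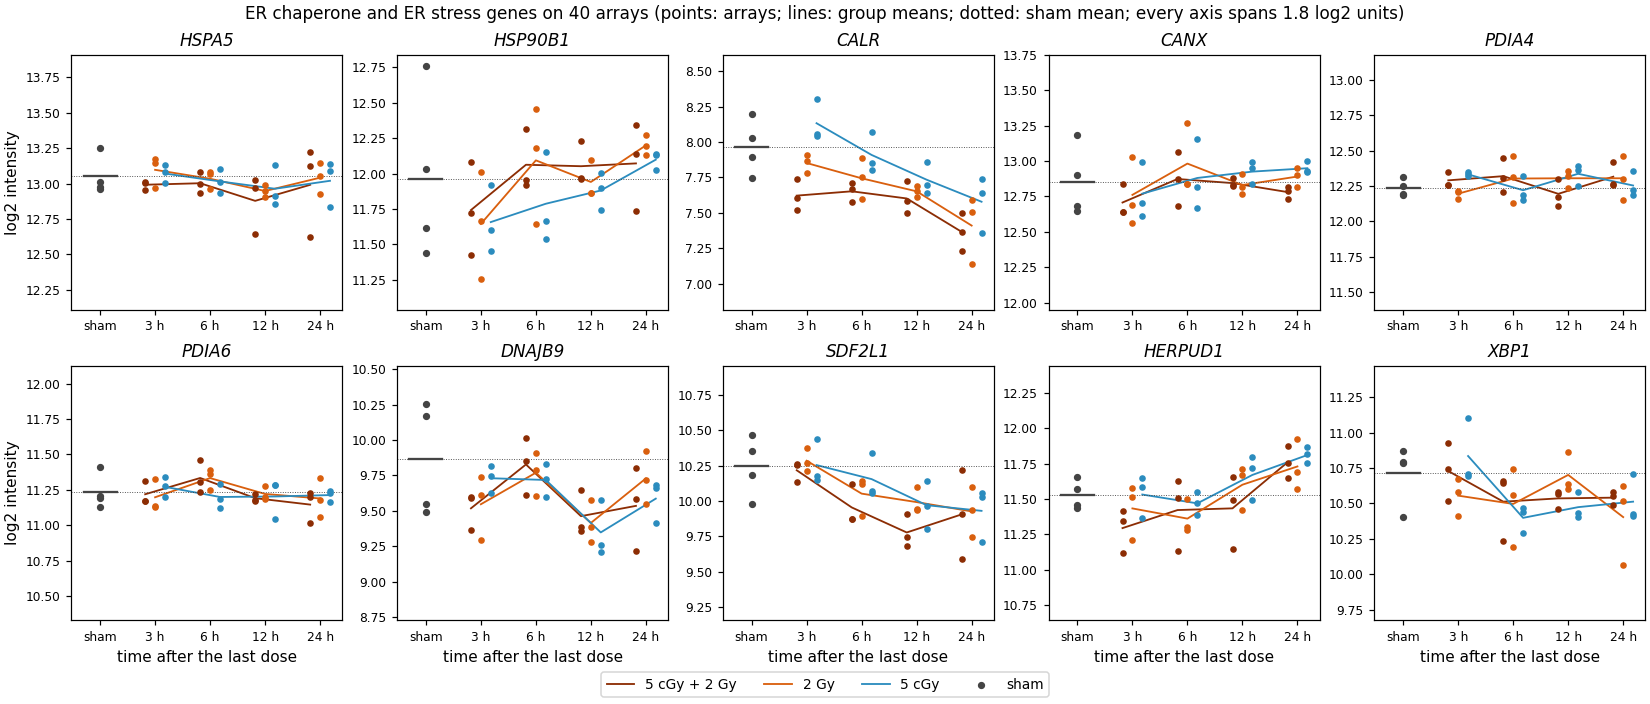
log2 intensity (y axis) of the 10 genes on the 40 arrays, by time after the last dose (x axis, sham at the left). Points are arrays, lines join group means, the dotted line is the sham mean, and each axis spans 1.8 log2 units; HSPA5, PDIA4 and PDIA6 stayed near the sham mean, while CALR lay below it in every group but 5 cGy at 3 h.

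**Figure D2:**
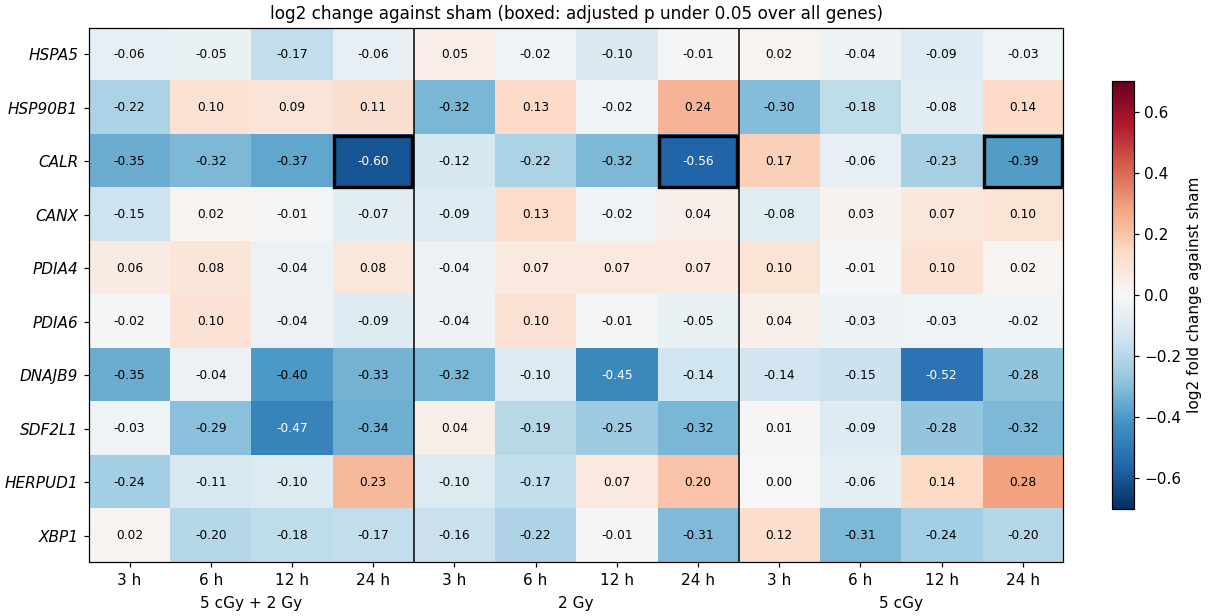
log2 change against sham of each gene (rows) for each treatment and time (columns), with colour from blue (lower than sham) to red (higher). The 3 boxed values, all of CALR at 24 h, passed an adjusted p of 0.05.

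HSPA5 and HSP90B1 are the main Hsp70 and Hsp90 chaperones of the ER. HSPA5 read 12.62, 13.23 and 13.12 at 24 h after 5 cGy + 2 Gy, 12.93, 13.15 and 13.05 after 2 Gy, 12.83, 13.09 and 13.14 after 5 cGy, and 13.25, 12.97, 12.96 and 13.01 in sham. The groups overlapped, with replicate 1 low at 24 h and high in sham. Over the 12 comparisons against sham its change lay between -0.17 and 0.05 with a standard error of at most 0.11 (lowest adjusted p 0.581), and the widest 95% confidence limits of the 12 were -0.40 and 0.27. HSP90B1, also called GRP94, varied more between arrays. At 3 h it read 12.01, 11.67 and 11.26 after 2 Gy and 11.92, 11.60 and 11.45 after 5 cGy, against 12.76, 12.04, 11.44 and 11.62 in sham (11.96 ± 0.59, SD, n = 4). The groups overlapped, and replicate 1 was the highest in each. The sham arrays alone spanned more than its changes against sham, which lay between -0.32 and 0.24 with a standard error of at most 0.22 (lowest adjusted p 0.54).

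The probe sets of HSPA5 did not give 1 answer. The array holds 6 of them. The chosen one (11758169_s_at, mean 13.01) and 2 others (11725930_s_at, mean 11.78; 11725931_at, mean 8.66) lay between -0.30 and 0.17 of sham in all 12 comparisons, with no adjusted p under 0.05 in a fit of all 45284 probe sets. The remaining 3 (11725932_a_at, 11725933_at and 11725934_x_at, means 9.24, 8.06 and 8.76) are annotated to one and the same cDNA record, and they were lower than sham in every comparison. On 11725934_x_at, HSPA5 read 8.38, 8.42 and 8.46 at 12 h after 5 cGy + 2 Gy, against 9.14, 9.25, 9.16 and 9.19 in sham. The highest irradiated array of that group lay well under the lowest sham array. The change at this time was -0.81, -0.79 and -0.76 on the 3 probe sets, in the order named (adjusted p 0.00201 to 0.0060, limma over all probe sets), where 1.17% of all probe sets were called. At 24 h after 2 Gy the same probe sets changed by between -0.66 and -0.55, and all 3 were called (4.58% of all probe sets). At 3 h after 2 Gy 2 of the 3 were called (-0.61 to -0.53, 0.773% of all probe sets), and at 24 h after 5 cGy 1 of the 3 (-0.55 to -0.46, 2.27% of all). At 3 h after 5 cGy the 3 probe sets lay between -0.14 and -0.03 of sham and none was called.

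The calls of these 3 probe sets differed in how far they rested on single sham arrays. With each sham array left out in turn, 3 of 3 were called at 12 h after 5 cGy + 2 Gy every time. At 24 h after 2 Gy 3 of 3 were called, except that leaving out sham replicate 2 gave 2 (adjusted p 0.0311 to 0.0705). There the treated arrays read 7.91, 8.97 and 8.70 on 11725934_x_at, with replicate 1 far the lowest. Replicate 1 was the lowest on 11725933_at (7.42, 8.35 and 8.04) and 11725932_a_at (8.56, 9.47 and 9.19) too. Treated arrays were not left out for these probe sets, so how far the call rests on replicate 1 was not tested. At 3 h after 2 Gy the count was 0 when sham replicate 1, 2 or 4 was missing (lowest adjusted p 0.0571) and 1 when sham replicate 3 was. At 24 h after 5 cGy it was 0 when sham replicate 2, 3 or 4 was missing (lowest adjusted p 0.0575) and 1 when sham replicate 1 was. With the mean over all 6 probe sets as the value of the gene, HSPA5 was called at 12 h after 5 cGy + 2 Gy (-0.50 ± 0.12, adjusted p 0.0303, limma over all genes). Which probe sets follow the main HSPA5 transcript was not tested.

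**Figure D3:**
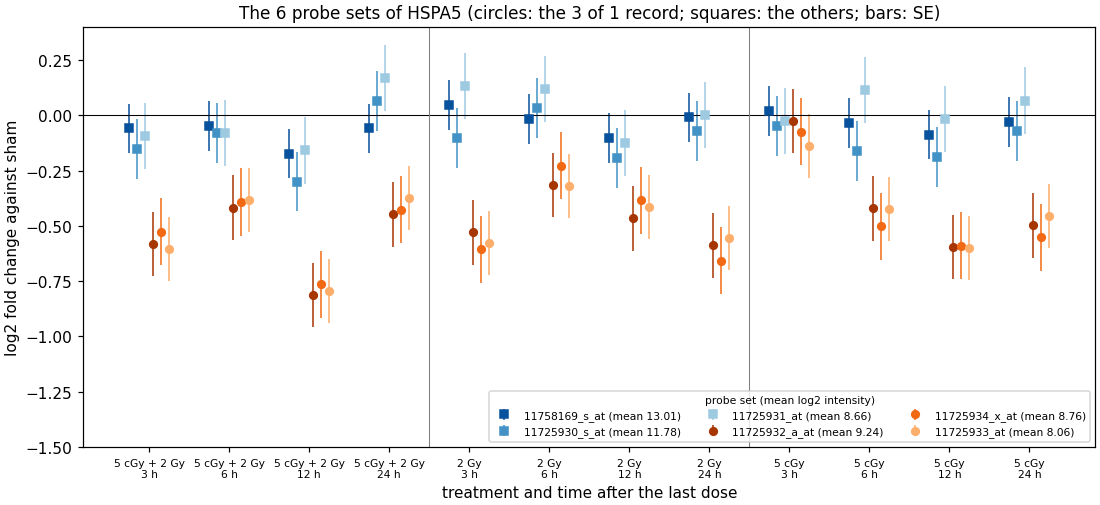
log2 change against sham (y axis) of the 6 probe sets of HSPA5 for each treatment and time (x axis), with standard errors. The 3 probe sets annotated to 1 cDNA record (circles) lay between -0.81 and -0.03, and the other 3 (squares) between -0.30 and 0.17.

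HSP90B1 and CANX also had probe sets that differed. The 7 probe sets of HSP90B1 changed by between -0.60 (11754606_a_at, mean 7.28) and 0.57 (11741912_a_at, mean 9.06) at 24 h after 2 Gy, and none was called (adjusted p 0.252 or more at this time, limma over all probe sets). CANX, the membrane-bound partner of CALR in glycoprotein folding, lay between -0.15 and 0.13 of sham on its chosen probe set (lowest adjusted p 0.777). Of its 9 probe sets 11727422_s_at was called lower at 3 h after 2 Gy (-0.63 ± 0.16, adjusted p 0.0492), and 11727421_a_at beside it changed by -0.56 ± 0.15 (adjusted p 0.0622). The call of 11727422_s_at held in 2 of 7 fits that each left out 1 of the arrays compared, with an adjusted p of 0.0279 to 0.162, and it was lost without sham replicate 1 or 2 or without any of the 2 Gy arrays. At that time 4 of the 39 probe sets of the 10 genes were called, 2 of HSPA5, 1 of CANX and 1 of PDIA6, where 0.773% of all probe sets were called. In all 35 of the 39 were below sham there, beside 41.1% of all probe sets. As many as 36 of 39 were below it at 3 h after 5 cGy + 2 Gy (47.5% of all), and 34 of 39 at 6 h after 5 cGy (54.5% of all), with 0 called at either. These are the highest counts of the 12 comparisons, which share the same sham arrays. The lowest were near the share of all probe sets, with 21 of 39 at 6 h after 2 Gy (51% of all) and 22 of 39 at 6 h after 5 cGy + 2 Gy (55.1% of all). Probe sets of 1 gene share its RNA and are not independent.

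CALR was lower than sham at 24 h after each treatment. It read 7.50, 7.36 and 7.23 at 24 h after 5 cGy + 2 Gy, 7.14, 7.59 and 7.50 after 2 Gy, and 7.74, 7.64 and 7.36 after 5 cGy, against 7.90, 7.74, 8.20 and 8.03 in sham. All 9 irradiated arrays at 24 h lay at or under the lowest sham array, with the highest 5 cGy array and the lowest sham array equal to 2 decimals. CALR fell by 0.60 ± 0.11 after 5 cGy + 2 Gy (adjusted p 0.000435), by 0.56 ± 0.11 after 2 Gy (adjusted p 0.00177) and by 0.39 ± 0.11 after 5 cGy (adjusted p 0.0498), all by limma. In folds these were 1.52, 1.47 and 1.31. At 12 h CALR read 7.72, 7.58 and 7.50 after 5 cGy + 2 Gy and 7.66, 7.61 and 7.69 after 2 Gy, all under the lowest sham array. Over the earlier times the differences from sham were not called. CALR differed by -0.35, -0.32 and -0.37 at 3, 6 and 12 h after 5 cGy + 2 Gy, by -0.12, -0.22 and -0.32 after 2 Gy, and by 0.17, -0.06 and -0.23 after 5 cGy.

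The call at 24 h after 5 cGy was lost without sham replicate 3 or 4, or without replicate 2 or 3 of the treated arrays (adjusted p 0.0737 to 0.373). The calls after 2 Gy and 5 cGy + 2 Gy kept an adjusted p of at most 0.0358 and 0.00809 with any 1 array left out. All 3 rested on the probe set, since CALR has 2 of nearly equal level (11715374_a_at, mean 7.72, and 11715375_x_at, mean 7.70). On the second, CALR read 7.60, 7.73 and 7.65 at 24 h after 5 cGy + 2 Gy, 7.62, 7.63 and 7.49 after 2 Gy, 7.58, 7.57 and 7.65 after 5 cGy, and 7.70, 7.57, 7.61 and 7.88 in sham. These arrays overlapped with sham, and the changes were -0.03, -0.11 and -0.09 (adjusted p 0.917, 0.647 and 0.762 when this probe set stood for the gene). By its chosen probe set CALR lay above 63.6% of all genes, while the other members lay above 84.6% or more. Which of these probe sets follows the main CALR transcript was not tested.

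**Figure D4:**
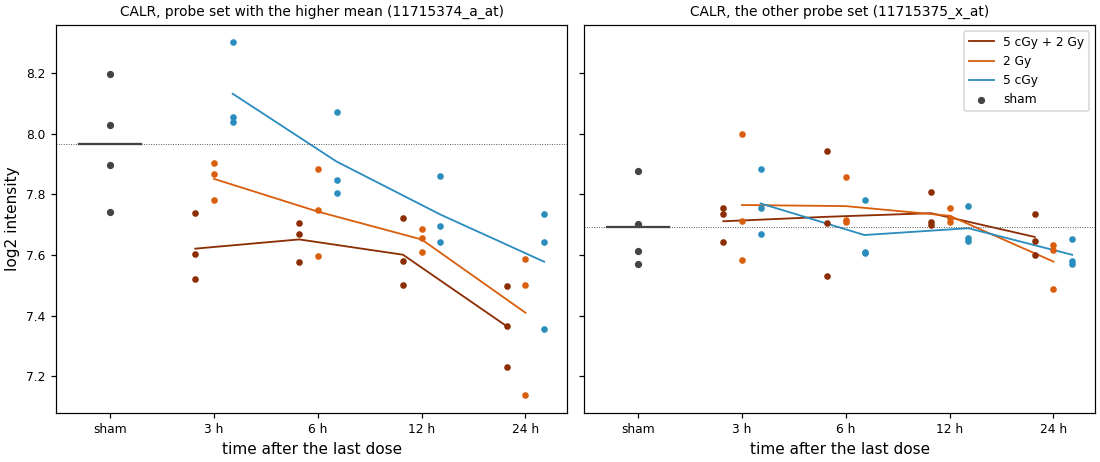
log2 intensity (y axis) of the 2 probe sets of CALR on the 40 arrays, by time after the last dose (x axis, sham at the left). Points are arrays, lines join group means and the dotted line is the sham mean; the values on the left ended at 7.14 to 7.74 at 24 h, under or level with the lowest sham array, and those on the right lay at 7.49 to 7.73, within reach of sham.

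PDIA4 and PDIA6 belong to the protein disulfide isomerases, which form and rearrange disulfide bonds in folding proteins. PDIA4 lay between -0.04 and 0.10 of sham over the 12 comparisons, with a standard error of 0.08 (lowest adjusted p 0.64). Its 13 group means ran from 12.20 to 12.34, the narrowest range of the 10 genes on their chosen probe sets. PDIA6 lay between -0.09 and 0.10 of sham, with group means from 11.15 to 11.33 (lowest adjusted p 0.616). The widest 95% confidence limits of any of the 12 comparisons were -0.21 and 0.27 for PDIA4 and -0.26 and 0.27 for PDIA6, so that a change beyond these was not seen on their chosen probe sets. A lower probe set of PDIA6 (11715434_a_at, mean 9.14) changed by -0.49 ± 0.12 at 3 h after 2 Gy (adjusted p 0.0490, limma over all probe sets) and by -0.40 ± 0.12 at 24 h (adjusted p 0.0558). The call at 3 h held in 1 of 7 fits that each left out 1 array compared, the one without sham replicate 3 (adjusted p over the 7 fits 0.0380 to 0.157).

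SDF2L1 and DNAJB9 are co-chaperones of HSPA5 that assist it with unfolded proteins. Both had their lowest group mean at 12 h, and neither was called against sham in the main model. With the replicate number added to the limma model, both were called at 12 h after 5 cGy + 2 Gy (adjusted p 0.020 for SDF2L1 and 0.024 for DNAJB9). Number 4 occurs only in sham, so that model sets sham replicate 4 aside. SDF2L1 has a single probe set. It read 9.91, 9.74 and 9.68 at 12 h after 5 cGy + 2 Gy, against 9.98, 10.18, 10.36 and 10.46 in sham. The groups did not overlap, with sham replicate 1 nearest to the irradiated arrays, and the change was -0.47 ± 0.13 (adjusted p 0.0568, limma). At 24 h SDF2L1 changed by -0.34, -0.32 and -0.32 after 5 cGy + 2 Gy, 2 Gy and 5 cGy. Without sham replicate 1 it was called at 12 h (-0.56, adjusted p 0.0146) and at 24 h (-0.43, adjusted p 0.0278) after 5 cGy + 2 Gy and at 24 h after 2 Gy (-0.41, adjusted p 0.0428). Without replicate 2 of the treated arrays it was also called at 24 h after 5 cGy + 2 Gy (-0.50, adjusted p 0.0213).

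DNAJB9, also called ERdj4, was below the sham mean in all 12 comparisons on its chosen probe set. It read 9.57, 9.21 and 9.26 at 12 h after 5 cGy, 9.57, 9.39 and 9.28 after 2 Gy, and 9.36, 9.65 and 9.39 after 5 cGy + 2 Gy. In sham it read 10.26, 10.17, 9.55 and 9.49. The sham arrays fell into a high pair and a low pair, and the irradiated arrays lay about the low pair. At 3 h DNAJB9 read 9.60, 9.59 and 9.36 after 5 cGy + 2 Gy and 9.61, 9.74 and 9.30 after 2 Gy, and these also overlapped the low sham pair. The changes at 12 h were -0.52 ± 0.16, -0.45 ± 0.16 and -0.40 ± 0.16 (lowest adjusted p 0.166, limma). Without sham replicate 4 the change after 5 cGy was called (-0.64 ± 0.16, adjusted p 0.0481). With the replicate number added to the limma model, all 3 changes at 12 h were called. In the same order they were -0.64, -0.58 and -0.53 (adjusted p 0.011, 0.018 and 0.024). The labels do not say that arrays of the same number belong together. Number 4 occurs only in sham, so the model with replicate numbers sets sham replicate 4, the lowest sham array here (9.49), aside. The change after 5 cGy was thus -0.64 both in that model and without sham replicate 4, and the 2 are not separate checks.

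HERPUD1 encodes a membrane protein of ER-associated degradation, the route by which misfolded proteins leave the ER. On the chosen probe sets it was the only one of the 10 genes called higher in any comparison, in cultures at 24 h against those at 3 h after 5 cGy + 2 Gy. HERPUD1 read 11.65, 11.87 and 11.75 at 24 h, against 11.12, 11.35 and 11.42 at 3 h. All arrays at 24 h were above those at 3 h, and the change was 0.46 ± 0.13 (adjusted p 0.0332, limma), where 4.99% of all genes were called. HERPUD1 changed by 0.30 ± 0.13 after 2 Gy (adjusted p 0.136) and 0.28 ± 0.13 after 5 cGy (adjusted p 0.299) between the same times. Against sham it lay between -0.24 (3 h after 5 cGy + 2 Gy) and 0.28 (24 h after 5 cGy), with a lowest adjusted p of 0.247. The call was lost without replicate 1 (0.38, adjusted p 0.139) or replicate 2 (0.49, adjusted p 0.0929) at 3 h, or without replicate 2 (0.41, adjusted p 0.153) or replicate 3 (0.47, adjusted p 0.0929) at 24 h. Of the 3 other probe sets of HERPUD1, 11749257_a_at and 11741510_a_at changed by 0.39 and 0.31 (unadjusted p 0.00692 and 0.0419), and 11761596_x_at, with a mean of 3.90, by -0.17.

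XBP1, the transcription factor whose mRNA is spliced by IRE1, has a single probe set, so its spliced and unspliced forms are not told apart here. Its changes against sham lay between -0.31 (6 h after 5 cGy, and 24 h after 2 Gy) and 0.12 (3 h after 5 cGy), with a standard error of at most 0.14 and a lowest adjusted p of 0.216. At 6 h XBP1 read 10.19, 10.56 and 10.74 after 2 Gy and 10.29, 10.47 and 10.44 after 5 cGy. At 24 h after 2 Gy it read 10.06, 10.63 and 10.52, against 10.40, 10.87, 10.79 and 10.78 in sham. Replicate 1 was the lowest array of sham and of each of these groups, and all overlapped sham.

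The purpose of the priming dose was to see if cells irradiated beforehand answer 2 Gy differently. For these genes, no difference between cultures given 5 cGy + 2 Gy and those given 2 Gy alone passed the test. At 3, 6, 12 and 24 h, and in the mean over these times, 0 of the 10 genes were called by limma, and 0% of all genes were called in each of the 5 comparisons. None of the 10 genes had an unadjusted p under 0.05 in any of them, beside 1.11% to 5.22% of all genes. The largest differences in the mean over the times were those of CALR (-0.10 ± 0.06, 95% confidence interval -0.23 to 0.02) and SDF2L1 (-0.10 ± 0.07, -0.24 to 0.04). At 3 h CALR read 7.60, 7.52 and 7.74 after 5 cGy + 2 Gy and 7.78, 7.87 and 7.91 after 2 Gy, without overlap (-0.23 ± 0.12, adjusted p 0.955). At 12 h SDF2L1 read 9.91, 9.74 and 9.68 after 5 cGy + 2 Gy and 9.94, 10.10 and 9.94 after 2 Gy, also without overlap (-0.21 ± 0.14, unadjusted p 0.127). Both genes were the lower after 5 cGy + 2 Gy, and neither difference was called. DNAJB9 had the largest difference at 24 h (-0.19 ± 0.17), where it read 9.22, 9.80 and 9.59 after 5 cGy + 2 Gy and 9.55, 9.92 and 9.71 after 2 Gy, with overlap. For HSPA5 the difference in the mean over the times was -0.06 (-0.18 to 0.06), for HSP90B1 0.01 (-0.23 to 0.26), for PDIA4 0.00 (-0.09 to 0.09) and for PDIA6 -0.01 (-0.11 to 0.08). For CANX it was -0.06 (-0.20 to 0.07), for DNAJB9 -0.03 (-0.20 to 0.14), for HERPUD1 -0.05 (-0.19 to 0.08) and for XBP1 0.04 (-0.11 to 0.19). A difference beyond these limits was not seen, which does not show that the cultures were alike.

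Between the single doses, 2 Gy against 5 cGy, 0 of the 10 genes were called at any time or in the mean over the times. Among all genes 0.0274%, 0.0274%, 0.011% and 0.175% were called at 3, 6, 12 and 24 h, and 0.23% in the mean. CALR had an unadjusted p under 0.05 at 3 h (9.01% of all genes), where it read 7.78, 7.87 and 7.91 after 2 Gy and 8.04, 8.06 and 8.30 after 5 cGy. The groups did not overlap, but the difference of -0.28 ± 0.12 had an adjusted p of 0.465. XBP1 read 10.41, 10.58 and 10.67 after 2 Gy and 10.69, 11.10 and 10.71 after 5 cGy at 3 h (-0.28 ± 0.15, adjusted p 0.621), and 10.60, 10.86 and 10.64 after 2 Gy against 10.41, 10.58 and 10.44 after 5 cGy at 12 h (0.23 ± 0.15, unadjusted p 0.139). The direction was thus lower at the first time and higher at the other, without a call at either. In the mean over the times CALR differed by -0.17 ± 0.06 (-0.30 to -0.05, adjusted p 0.482), and the other 9 genes by between -0.09 and 0.11.

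**Figure D5:**
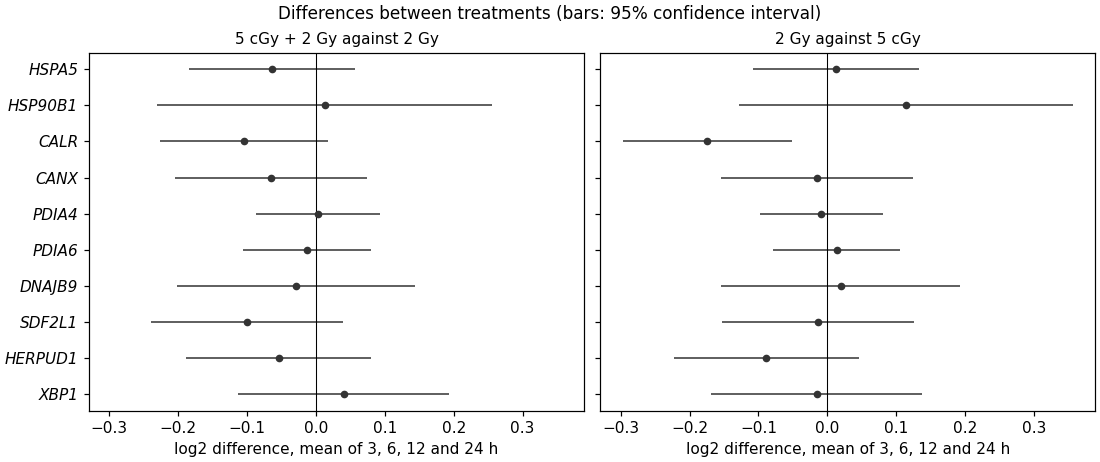
Difference in log2 intensity (x axis), averaged over 3, 6, 12 and 24 h, between 5 cGy + 2 Gy and 2 Gy (left) and between 2 Gy and 5 cGy (right) for the 10 genes, with 95% confidence intervals. All intervals on the left and all but that of CALR on the right include 0, and no difference passed the adjusted test.

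Comparing 24 h with 3 h within a treatment leaves sham out of the comparison. With no sham arrays at these times, the course after irradiation and time in culture cannot be told apart here either. CALR fell by 0.55 ± 0.12 after 5 cGy (adjusted p 0.00764) and by 0.44 ± 0.12 after 2 Gy (adjusted p 0.0155), each as 1 of 10 genes called, where 3.11% and 11.6% of all genes were called. It read 7.74, 7.64 and 7.36 at 24 h after 5 cGy, against 8.04, 8.06 and 8.30 at 3 h, and the times did not overlap. After 5 cGy + 2 Gy CALR changed by -0.26 ± 0.12 (adjusted p 0.258). On its other probe set CALR changed by -0.17 after 5 cGy (adjusted p 0.504) and by -0.19 after 2 Gy (adjusted p 0.259), with no call. The call after 5 cGy was lost without replicate 3 at either time (adjusted p 0.0528 at 3 h and 0.106 at 24 h), and that after 2 Gy without replicate 3 at 3 h (adjusted p 0.0625) or replicate 1 at 24 h (adjusted p 0.122). Of the probe sets not chosen, 11741912_a_at of HSP90B1 was called higher at 24 h after 2 Gy (0.96 ± 0.28, adjusted p 0.0281), and so were 11727421_a_at (0.60 ± 0.16, adjusted p 0.0158) and 11727422_s_at (0.56 ± 0.17, adjusted p 0.0340) of CANX, where 8.66% of all probe sets were called. With 1 of the 6 arrays left out in turn, 11741912_a_at was called in 2 of 6 fits (adjusted p 0.0130 to 0.150), 11727421_a_at in 3 of 6 (0.00594 to 0.116) and 11727422_s_at in 2 of 6 (0.0185 to 0.201), and all 3 calls were lost without replicate 2 at 3 h, or without replicate 2 or 3 at 24 h. Those of 11741912_a_at and 11727422_s_at were also lost without replicate 3 at 3 h. On the chosen probe sets HSP90B1 changed by 0.55 ± 0.24 (adjusted p 0.123) and CANX by 0.13 ± 0.14 (adjusted p 0.552). The difference between treatments in the change from 3 h to 24 h was tested by limma interaction terms (2 Gy minus 5 cGy, and 5 cGy + 2 Gy minus 2 Gy), and it passed for none of the 10 genes, with 0% of all genes called and 0 of the 10 genes at an unadjusted p under 0.05 in either test (9.2% and 2.77% of all genes).

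The neighbouring branches of the ER were read from lists. The PERK arm of the stress response acts through ATF4 and is shared with other stresses. At 12 h 3, 3 and 2 of its 10 genes were called higher after the small, the large and the combined dose, where 0.329%, 0.669% and 1.4% of all genes were called in either direction. At 24 h 2, 4 and 5 were called higher, where 3.11%, 6.05% and 9.92% of all genes were called, and none was called lower at either time. Its median change at 12 h was 0.56, 0.51 and 0.24, beside medians over all genes within 0.02 of 0. The list was chosen with earlier results of these data known, so its counts and medians are not a test of this arm. At 6 h DDIT3 and CHAC1 were called higher after 2 Gy (1.16 ± 0.23 and 1.23 ± 0.27, adjusted p 0.0236 and 0.0457 by limma) and again after 5 cGy + 2 Gy. DDIT3, which encodes the stress factor CHOP, was higher than sham at 24 h by 1.29 ± 0.23 after 5 cGy + 2 Gy (adjusted p 0.000227), by 1.07 ± 0.23 after 2 Gy (adjusted p 0.0033) and by 0.95 ± 0.23 after 5 cGy (adjusted p 0.0159), and it was called at 12 h too. CHAC1, a glutathione-degrading enzyme downstream of ATF4, rose by 1.29 ± 0.27 and 1.45 ± 0.27 at 12 h after 5 cGy and 2 Gy. SESN2, a stress gene also known as a p53 target, rose by 1.31 ± 0.22, 1.45 ± 0.22 and 0.91 ± 0.22 at 12 h after the small, the large and the combined dose. ATF3, a transcription factor also raised by DNA damage, was called at 3 h after 2 Gy (1.48). ATF4 itself rose by 0.38 ± 0.11 and 0.41 ± 0.11 at 24 h after 2 Gy and 5 cGy + 2 Gy. At 3 h DDIT3 lay within 0.09 of sham after each treatment, and it did not pass the test at 6 h after 5 cGy (0.86 ± 0.23, adjusted p 0.354). At 12 h HSPA5 on its chosen probe set changed by -0.09, -0.10 and -0.17 in the same cultures.

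At 24 h after 2 Gy and 5 cGy + 2 Gy, the times of most calls below, 6.05% and 9.92% of all genes were called, so that 1 gene of a list is near that background. Of 17 further chaperones and folding enzymes of the ER, none was called higher against sham at any time. CRELD2, an ER protein induced by the unfolded protein response whose promoter also held the ERSE, was lower at 24 h after 2 Gy (-0.29 ± 0.09, adjusted p 0.0466) and 5 cGy + 2 Gy (-0.32 ± 0.09, adjusted p 0.0145), as 1 of the 17 each time. Between 24 h and 3 h after 2 Gy, DNAJC10 (0.86 ± 0.28) and ERO1A (0.55 ± 0.15), both of the disulfide machinery, rose and CRELD2 fell by 0.38 ± 0.09. In that comparison 11.6% of all genes were called, so these calls are read for the named genes alone. Of 14 further genes of ER-associated degradation only EDEM2, which trims glycans of misfolded proteins, was called against sham (0.29 ± 0.08 at 24 h after 5 cGy + 2 Gy). SELENOS fell by 0.40 ± 0.10 and 0.41 ± 0.10 from 3 h to 24 h after 5 cGy and 2 Gy, where 3.11% and 11.6% of all genes were called. Of 9 sensors and transcription factors, MBTPS1, the protease that starts the cleavage of ATF6, rose by 0.30 ± 0.08 and CREB3L2 fell by 0.33 ± 0.09 at 24 h after 5 cGy + 2 Gy.

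Genes of protein entry and exit had few calls against sham, at 24 h, where 9.92%, 6.05% and 3.11% of all genes were called after 5 cGy + 2 Gy, 2 Gy and 5 cGy. Of 17 genes of the translocon, signal peptidase and oligosaccharyltransferase, RPN1 was lower at 24 h after 2 Gy (-0.26 ± 0.07) and 5 cGy + 2 Gy (-0.25 ± 0.07), and SPCS2 after 5 cGy + 2 Gy (-0.56 ± 0.18). Of 13 genes of the COPII coat and ER exit, SEC23B, a coat subunit of vesicles leaving the ER, was lower at 24 h after all 3 treatments, by 0.44 ± 0.10 after 5 cGy + 2 Gy, 0.38 ± 0.10 after 2 Gy and 0.45 ± 0.10 after 5 cGy. SURF4, a cargo receptor, was lower by 0.31 ± 0.07 after 2 Gy and 5 cGy + 2 Gy. With at most 2 genes of a list called at a time, these counts are read for the named genes and not for the lists. Between 24 h and 3 h after 2 Gy SEC63, a translocon partner of HSPA5, rose by 0.64 ± 0.16, where 11.6% of all genes were called. The cytosol has Hsp70 and Hsp90 chaperones of the same families. At 24 h 3, 5 and 1 of 11 heat shock genes were called lower after 5 cGy + 2 Gy, 2 Gy and 5 cGy, and none higher. Of the 11, HSPD1 and HSPE1 belong to the mitochondria and the others mainly to the cytosol. HSPA8, the constitutive Hsp70 of the cytosol, fell by 0.48 ± 0.08, 0.54 ± 0.08 and 0.46 ± 0.08, and BAG3, its co-chaperone, fell by 0.47 ± 0.08 and 0.38 ± 0.08 after 5 cGy + 2 Gy and 2 Gy. HSPA1A and HSPA1B are near-identical genes whose probes cannot be fully told apart, and they were lower at 24 h after 2 Gy by 0.43 ± 0.10 and 0.47 ± 0.14.

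The 10 genes did not follow 1 common course. Over the 13 group means, Pearson's r between pairs of them ran from -0.79 (HSP90B1 and SDF2L1) to 0.75 (CALR and SDF2L1), with a median of 0.17 over the 45 pairs. Within groups, over the deviations of the 40 arrays, it ran from -0.69 to 0.85 (HSP90B1 and CANX), with a median of 0.07. These values describe arrays that share their sham group, normalization and replicate numbers. The mean of the 10 genes, each set to its own average, was highest in sham (0.09) and 5 cGy at 3 h (0.08) and lowest at 12 h after 5 cGy + 2 Gy (-0.08). The genes whose group means were most like those of HSPA5, among 10418 genes with a mean above 6, were TPST2 (r = 0.88), MANF (0.86), NLN (0.86), PRDM2 (0.85), UBFD1 (0.85) and ADCY7 (0.85). Those most like the mean of the 10 genes were GLUD1 (0.88), PIGG (0.88), MSL3 (0.87), MIS12 (0.86), GGNBP2 (0.86) and AGPAT5 (0.86). Both sets were picked as the highest of 10418 values of r over only 13 group means. The group means of HSPA5 spanned 0.22, beside an SD within groups of 0.14. Shared control of these genes was not tested.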

How the data were processed

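Expression was read as log2 intensity of each probe set in the deposited table, obtained by the authors with RMA (a background step, quantile scaling between arrays and a robust summary of probes), the tool listed in the submitters' processing notes, with no version. It spans 49495 probe sets, with values from 2.33 to 14.79 and 0 missing. The table carries no detection calls, and precision rests on the number of arrays. Probe sets annotated to exactly 1 gene were kept (45284, against 1333 with several genes and 2878 with none), and the one of highest mean stood for its gene. All 40 arrays entered 1 model of 13 group means (limma 3.58.1 in R 4.3.3), tested two-sided with Benjamini-Hochberg adjustment over 18244 genes, or over all probe sets where stated. The procedure was tested on simulated data. Alternatives were cyclic loess normalization, the replicate number as a block, only the arrays compared, the mean of the probe sets, an interquartile range filter removing 20% of genes, the methods' own cut-off (a raw p under 0.05 with more than a 1.2-fold change) and each array left out. The probe set with the second highest mean, the sham and block checks of the HSPA5 probe sets and the fits without 1 array for the other called probe sets, were added after seeing the data. The genes and lists were chosen with earlier results of these data known. The naming rule gave all 10 genes in each family of comparisons, array values for genes called or, with none called, for the pair with the largest changes, and up to 4 called genes of each list. Array values are printed for most, not all, of the pairs without a call. Probe sets that were not chosen, and SELENOS and SEC63, are named after their values were seen. Of the list genes, 6 were not analysed here. Promoters came from RefSeq (GRCh38.p14).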

Additional observations from a re-analysis of the deposited data

Results flagged for a closer look

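Sham replicate 1 read 13.25 for HSPA5, against 12.96 to 13.01 in the other 3 sham arrays, so that its distance to the next array was 0.833 of the whole range of the group, past the limit of Dixon's test at 95% for 4 samples. Chance alone gives such a gap in about 1 of 20 groups, and 10 genes were looked at. Without this array the changes of HSPA5 against sham lay between -0.11 and 0.11 over the 12 comparisons, with a lowest adjusted p of 0.708 by limma.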

How the results depend on the processing

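Values are counts of the 10 genes called, unless a change is named, and no alternative reversed a called change. With the raw p and fold cut-off of the methods the counts against sham were 1, 2 and 3 at 6, 12 and 24 h after 5 cGy, 2 and 3 at 12 and 24 h after 2 Gy, and 2, 2, 3 and 3 at the 4 times after 5 cGy + 2 Gy. The same cut-off gave 1 for 2 Gy against 5 cGy at 3 h, and 4, 4 and 2 for 24 h against 3 h after the small, the large and the combined dose. Of all genes it passed 2.41% to 19% in the comparisons against sham, 7.44% in 2 Gy against 5 cGy at 3 h, and 13.3% to 24.8% over time, so these counts are not read as results about the group. With the replicate block the counts were 1 and 2 at 12 and 24 h after 5 cGy, 1 at 12 h after 2 Gy, 2 and 3 at 12 and 24 h after 5 cGy + 2 Gy, and 2 and 4 for 24 h against 3 h after 5 cGy and 2 Gy. Number 4 occurs only in sham, so in comparisons against sham the block also sets sham replicate 4 aside. The calls added by the block were DNAJB9 at 12 h after the small, the large and the combined dose (-0.64, -0.58 and -0.53) and at 24 h after 5 cGy + 2 Gy (-0.46), SDF2L1 at 12 h after 5 cGy + 2 Gy (-0.40), and HERPUD1 at 24 h after 5 cGy (0.32) and 5 cGy + 2 Gy (0.27). For 24 h against 3 h they were HERPUD1 after 5 cGy (0.28) and 2 Gy (0.30), SDF2L1 (-0.36) and HSP90B1 (0.55) after 2 Gy. The deviations of arrays with the same number correlated by 0.263 on average (186 of 234 pairs over 0.1), against -0.12 with different numbers (60 of 504 over 0.1), and 29 of 40 arrays correlated best with their own number, which is a hint from the data and not from the design. The lowest pair of the same number reached -0.223, and as not every pair was over 0.1 the numbers were not taken to pair the arrays. Cyclic loess gave 2 at 12 h after 5 cGy + 2 Gy (CALR -0.40 and SDF2L1 -0.51). The mean of the probe sets gave 0 at 24 h after 5 cGy, 1 at 12 h after 5 cGy + 2 Gy (HSPA5) and 0 for 24 h against 3 h after 5 cGy + 2 Gy. The interquartile range filter gave 0 at 24 h after 5 cGy. The probe set with the second highest mean gave 0 at 24 h after each treatment and 0 for 24 h against 3 h within each. A fit of only the arrays compared, which has fewer residual degrees of freedom, gave 0 at 24 h after each treatment and 0 for 24 h against 3 h after 5 cGy and 2 Gy. With 1 array left out, counts ran from 0 to 1 at 12 and 24 h after 5 cGy and at 12 h after 5 cGy + 2 Gy, from 1 to 2 at 24 h after 2 Gy and 5 cGy + 2 Gy, and from 0 to 1 for 24 h against 3 h within each treatment. The cause of these differences was not tested.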
